A study of Mus musculus with 36 samples.

Results

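MicroRNA genes were followed through the chromatin comparison of primary mouse aortic smooth muscle cells that lacked cystathionine gamma-lyase (CSE, encoded by Cth) with wild-type cells. A peak belonged to a microRNA gene when the gene symbol to which the authors had annotated it began with Mir followed by a number or by let7 and did not end in hg, the ending of host transcripts. By this rule 182 of 13958 listed peaks were members, at 133 microRNA genes. They comprised 121 of 8115 H3K9ac peaks (93 genes), 57 of 5374 H3K9me3 peaks (38 genes) and 4 of 469 H3K4me3 peaks (3 genes).

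A microRNA gene is transcribed as a long primary transcript, often within a host gene. Its hairpin is cut out by Drosha and Dgcr8, exported by Xpo5, trimmed by Dicer1 and loaded as a short mature strand into an Argonaute protein. The mature strand pairs with messages mainly through its seed, bases 2 to 8, and lowers their output. In smooth muscle, miR-143 and miR-145 are known to favour the contractile state, while miR-21, miR-26a, miR-31 and miR-24 have been linked with proliferation or with loss of contractile genes. H3K9ac and H3K4me3 mark active promoters, H3K9ac also active enhancers, and H3K9me3 marks heterochromatin.

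Cells came from global CSE knockout (KO) mice or from wild-type (WT) C57BL/6N mice, and all of them, KO and WT, had been given 1 µM angiotensin II for 24 h. Angiotensin II is a vasoconstrictor peptide, and CSE produces hydrogen sulfide. The 36 samples formed 12 groups of 3, namely immunoprecipitated or input chromatin of KO or WT cells for each of the 3 marks. The labels do not say whether the samples of a group came from separate animals or cultures, and the knockout was present in every cell of the animal, not in smooth muscle alone. The tables held 1 value per genotype and no value per sample, so the depth behind them is unknown and their replicate error cannot be shown. Each H3K9ac and H3K9me3 table listed peaks with a p between 0.0001 and 0.05, so a microRNA gene without a peak here may have had a larger or a smaller p. No peak of Cth was listed for any mark (0 peaks), and the knockout could not be checked. Signal below is 2 raised to the log2 normalised value of the authors, and folds are of KO over WT. Peak coordinates match the GRCm38 build.

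Mature sequences are shown for the microRNAs on which the results turn, as RefSeq gives them for assembly GRCm38.p6, 5′ to 3′, with the seed in capitals. The first 6 come from a pair of clusters whose hairpins lie in or beside a peak with a false discovery rate (FDR) under 0.05.
miR-199a-5p: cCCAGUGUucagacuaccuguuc
miR-199a-3p: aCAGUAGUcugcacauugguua
miR-214-3p: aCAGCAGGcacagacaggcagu
miR-23a-3p: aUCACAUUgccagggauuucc
miR-27a-3p: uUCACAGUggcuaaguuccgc
miR-24-3p: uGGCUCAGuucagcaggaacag
miR-26a-5p is made from both Mir26a-1 and Mir26a-2, which each had an H3K9ac peak with an FDR under 0.05.
miR-26a-5p: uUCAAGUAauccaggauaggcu
The next 4 form a pair of seed groups whose members were listed at separate loci.
miR-148a-3p: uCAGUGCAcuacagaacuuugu
miR-148b-3p: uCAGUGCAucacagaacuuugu
miR-21a-5p: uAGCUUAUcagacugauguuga
miR-21c: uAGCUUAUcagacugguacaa
The last ones belong to microRNAs known in smooth muscle growth and differentiation.
miR-31-5p: aGGCAAGAugcuggcauagcug
let-7i-5p: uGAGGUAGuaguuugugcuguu

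RefSeq gave a mature sequence for 114 of the 133 genes, with 171 different seeds. Only 7 seeds were shared by more than 1 of these genes, and 13 genes carried them. Mir148a and Mir148b shared the seed of the 3p strand, and both had lower H3K9ac in KO cells. Mir21a and Mir21c shared theirs, the first with an H3K9ac peak and the other with an H3K9me3 peak, both higher in KO cells. Mirlet7i shared its seed with Mir1961, and their H3K9ac peaks went opposite ways. The seed of miR-24-3p was also that of Mir6410 (H3K9ac) and of Mir5124b and Mir6413 (H3K9me3).

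The promoter of Dnm3os is shown because the strongest H3K9ac peak among the 17 of microRNA genes with an FDR under 0.05 covers it whole. Dnm3os is a long noncoding transcript antisense to Dnm3 that carries both Mir199a-2 and Mir214, and it is known from mesenchymal tissues. The window runs from 250 bases before to 50 bases after the RefSeq start, chr1:162217373-162217672 on the plus strand of GRCm38.p6, with capitals on a CArG box, the element that serum response factor recognises in contractile genes.
Dnm3os promoter: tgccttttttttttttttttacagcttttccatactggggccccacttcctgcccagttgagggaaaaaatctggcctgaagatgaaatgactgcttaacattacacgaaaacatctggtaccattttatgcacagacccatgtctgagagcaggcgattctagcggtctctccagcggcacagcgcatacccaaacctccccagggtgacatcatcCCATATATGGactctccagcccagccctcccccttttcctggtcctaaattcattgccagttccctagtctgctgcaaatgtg
The CArG box, which reads as a CArG box on both strands, lies 23 bases before the start. Of 32851 RefSeq promoters of this length 535 (1.63%) hold at least 1. The E-box motif CANNTG, also the same on both strands, occurs 3 times in this window without overlapping the CArG box, and 72.3% of the promoters hold it at least once. Among the 6 RefSeq starts of other genes inside the H3K9ac peaks of microRNA genes, only that of Dnm3os had a CArG box in this window.

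H3K9ac at microRNA genes was mostly lower in KO cells. Of 121 peaks 102 (84.3%) were lower and 19 (15.7%) higher by the authors' deposited table, against 77.2% lower and 22.8% higher of all 8115 listed peaks. With 1 call per gene, 76 of 93 microRNA genes were lower, or 81.7%, against 75.8% of all 5911 listed genes. If every microRNA peak had taken the share of its own chromosome, 75.8% would have been lower. The median log2 fold change was -1.05 for microRNA genes and -0.98 for all listed peaks by the authors' deposited table, which are close to each other. No value per sample allowed a test of these differences. The split can also depend on the normalisation of the libraries, which the sources used here do not describe.

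**Figure D1:**
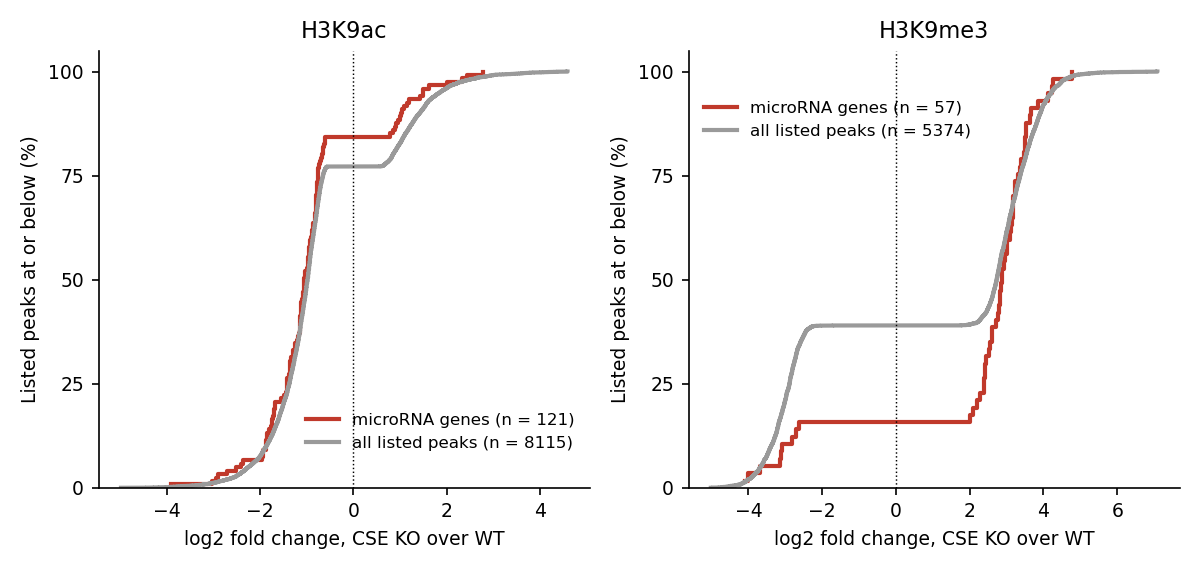
Share of listed peaks (%) at or below each log2 fold change, CSE KO over WT, for microRNA genes (red) and all listed peaks (grey), H3K9ac left and H3K9me3 right. At 0 the microRNA curve stands at 84.3% for H3K9ac, against 77.2% for all peaks, and at 15.8% for H3K9me3, against 39% for all peaks.

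At an FDR under 0.05 by the authors' deposited table, 17 of 121 microRNA peaks (14.0%) were called, against 16.6% of all listed peaks. Of these, 15 were lower (12.4% of microRNA peaks, against 12.6% of all peaks) and 2 higher (1.65%, against 4%). These shares are near those of the whole table. The 17 peaks belonged to 17 different genes, and the remaining 104 peaks are listed by unadjusted p only. Median signal over both genotypes was 43.7 at microRNA peaks and 40.8 at all listed peaks, and median width 730 and 719 bases.

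**Figure D2:**
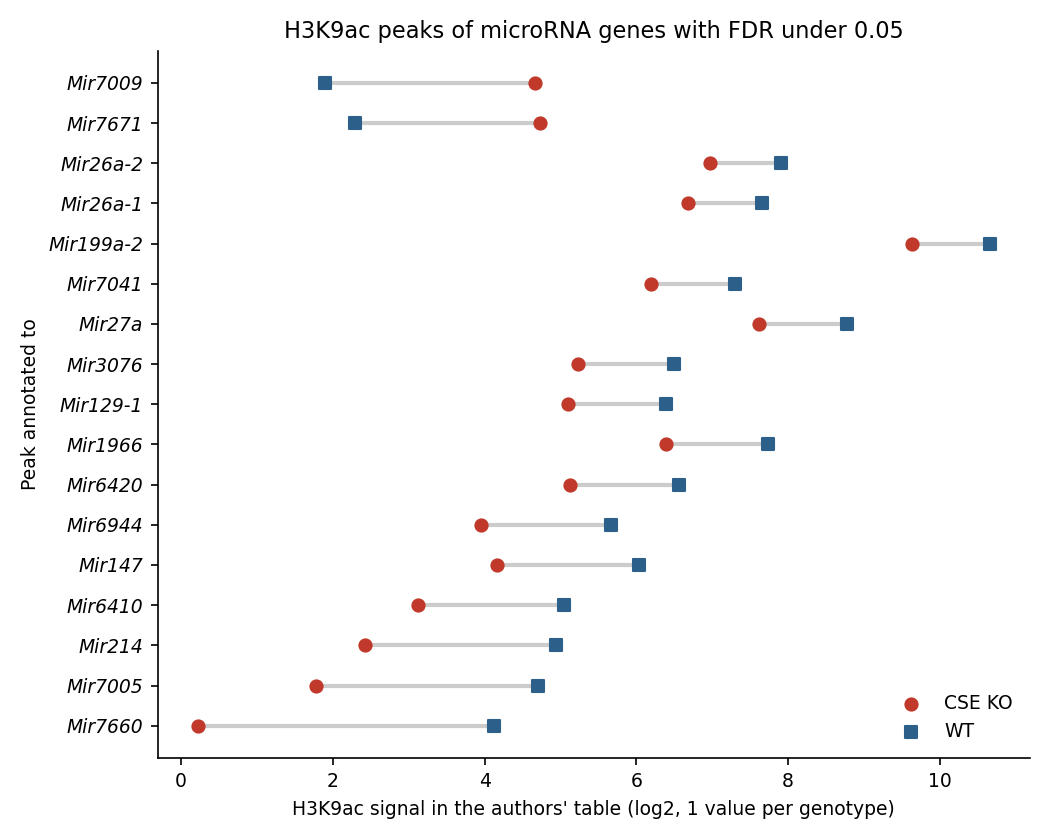
H3K9ac signal (log2, authors' values, 1 per genotype) in CSE KO (red circles) and WT (blue squares) for the 17 microRNA peaks with an FDR under 0.05. KO lies left of WT in 15 of them, and right of it at Mir7009 and Mir7671.

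The Mir199a-2 and Mir214 locus on chromosome 1 showed lower acetylation over the Mir199a-2 hairpin and near that of Mir214, which no listed peak held. The peak that holds the Mir199a-2 hairpin and the Dnm3os promoter printed above (chr1:162216421-162221561) had a signal of 792 in KO and 1618 in WT cells by the authors' deposited table (2.06-fold lower, p 0.00169, FDR 0.045). A small peak 1.21 kb from the Mir214 hairpin had 5.35 in KO and 30.7 in WT cells (5.74-fold lower, authors' deposited table, FDR 0.0209). The hairpins lie 5444 bases apart in Dnm3os. Another peak annotated to Dnm3os (chr1:162186657-162187073) is labelled intronic but lies before the Dnm3os promoter window printed above and outside the hairpin interval. It had 15.1 in KO and 31.1 in WT cells, at an FDR of 0.316 by the authors' deposited table. Dnm3 had a pair of lower peaks at FDRs of 0.218 and 0.279 by the authors' deposited table. The listed peaks annotated to these genes were thus all lower in KO cells, and those of the microRNA genes passed the FDR threshold. Products of this locus, miR-199a and miR-214, are known from fibrosis.

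The Mir23a, Mir27a and Mir24-2 cluster on chromosome 8 lies whole in 1 peak, annotated to Mir27a (chr8:84206597-84209738), together with Mir3074-2. Its signal was 195 in KO and 437 in WT cells, 2.22-fold lower, at p 0.000524 and an FDR of 0.0209 by the authors' deposited table. The cluster lies outside other RefSeq genes. miR-24 is known to act in the response of smooth muscle to platelet-derived growth factor, and miR-27a in angiogenesis and fat cell formation.

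Both sources of miR-26a, known to promote proliferation of human smooth muscle cells, had a lower peak with an FDR under 0.05 inside their host phosphatase genes. At Mir26a-1 in Ctdspl the peak over the hairpin (chr9:119030888-119032621) had 103 in KO and 201 in WT cells (1.96-fold lower, authors' deposited table, FDR 0.0288). A further peak 28.8 kb away had 144 in KO and 231 in WT cells, and another 37.0 kb away went the other way with 82.7 in KO and 43.7 in WT cells, at FDRs of 0.203 and 0.153 by the authors' deposited table. Among the 21 microRNA genes with several H3K9ac peaks, only Mir26a-1 had peaks that differed in direction. At Mir26a-2 in Ctdsp2 a peak 3.43 kb from the hairpin had 125.4 in KO and 239 in WT cells (1.91-fold lower, FDR 0.0418), and a smaller peak 0.703 kb away had 7.16 in KO and 24.9 in WT cells (FDR 0.314), by the authors' deposited table.

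Mir143 and Mir145a, the contractile microRNAs, lie 1301 bases apart in the long noncoding transcript Carmn on chromosome 18. Their 3 peaks were all lower in KO cells. The peak over the Mir145a hairpin had 95.7 in KO and 161 in WT cells (1.68-fold lower, p 0.0219, authors' deposited table, FDR 0.213). The Mir143 peaks had 50.2 in KO and 95.7 in WT cells beside the hairpin, and 359.5 in KO and 695 in WT cells 2.11 kb away, at FDRs of 0.142 and 0.135 by the authors' deposited table. None of the 3 passed the FDR threshold. The host Carmn itself did, with 241 in KO and 626 in WT cells at 1 promoter peak (2.60-fold lower, FDR 0.0115), and 1113 in KO and 1795 in WT cells at the other (FDR 0.296), by the authors' deposited table. All 5 listed peaks along Carmn were thus lower. On this chromosome all 5 microRNA peaks were lower (Mir5107 and Mir378a, in Ppargc1b, were the others), while 36.8% of all its listed H3K9ac peaks were lower by the authors' deposited table. As 3 of these 5 peaks belong to this 1 locus, they are not separate cases, and the difference was not tested.

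Mir148a, whose product is known to act on the DNA methyltransferase Dnmt1 in human cells, had the highest acetylation of all microRNA genes, but far from its hairpin. At 102 kb from it a peak had 1097 in KO and 1924 in WT cells, and at 94.8 kb the next (chr6:51167852-51175032) had 1009.9 in KO and 1898 in WT cells by the authors' deposited table. A further peak at 61.2 kb had 164 in KO and 302 in WT cells by the authors' deposited table. The folds, 1.75-fold, 1.88-fold and 1.84-fold lower, were alike, and their FDRs were 0.257, 0.149 and 0.117 by the authors' deposited table, so none passed. At Mir148b, in Copz1, a peak 94 bases from the hairpin had 39.1 in KO and 68.6 in WT cells (1.75-fold lower, authors' deposited table, FDR 0.194). RefSeq starts of other genes lie inside the Mir148a peaks at 102 kb (Gm32328 and Gm52901) and 61.2 kb (Gm32403), and annotation to Mir148a does not show that these peaks serve it.

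**Figure D3:**
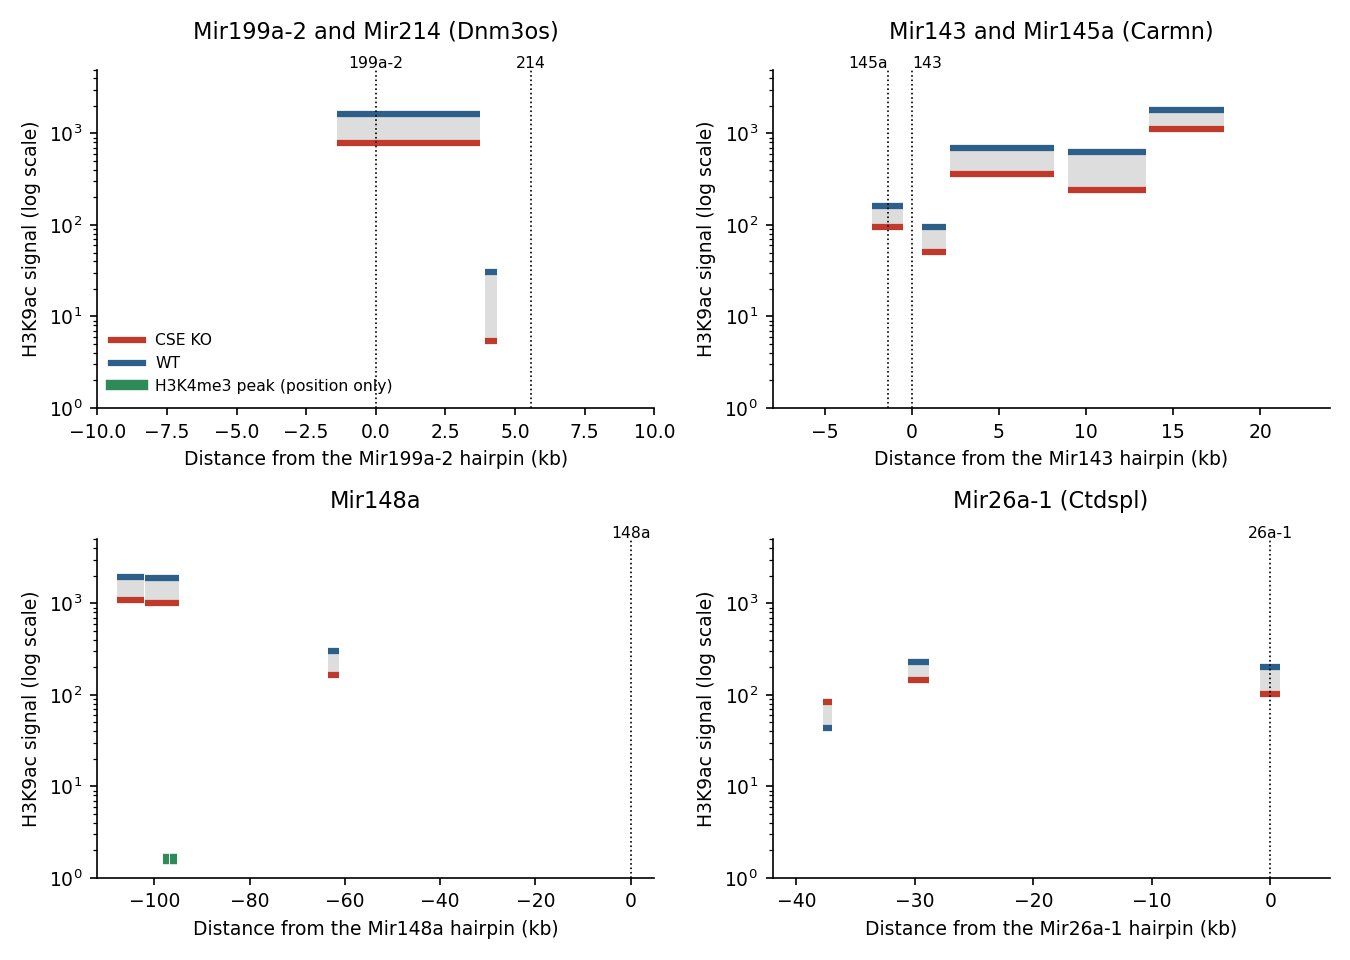
H3K9ac signal (log axis) of every listed peak in each window by distance (kb, along the chromosome) from the named hairpin, CSE KO in red and WT in blue, with hairpins as dotted lines and H3K4me3 peaks, which have no signal value, as green blocks. KO lies below WT at all listed peaks shown except that 37.0 kb from the Mir26a-1 hairpin.

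Other microRNAs linked with smooth muscle growth had small peaks away from their hairpins. Mir21a, whose product is known to promote growth of the arterial wall, had 19.7 in KO and 4.89 in WT cells 9.54 kb from the hairpin (4.03-fold higher, authors' deposited table, FDR 0.269). The gene Vmp1, which holds Mir21a, had a peak of its own with 120 in KO and 65.8 in WT cells (1.83-fold higher, authors' deposited table, FDR 0.136). Mir31, known to promote proliferation of rat smooth muscle cells, had 21.7 in KO and 4.32 in WT cells 7.25 kb from the hairpin (5.03-fold higher, authors' deposited table, FDR 0.0618). Neither passed the FDR threshold, but the noncoding gene Gm49890 that holds Mir31 had a peak with 33.8 in KO and 7.16 in WT cells that did (FDR 0.0207), and a further one with 26.4 in KO and 8.94 in WT cells (FDR 0.227), by the authors' deposited table. All 3 peaks around Mir31 were thus higher in KO cells. Of all listed H3K9ac peaks, 62.8% were higher on chromosome 4, which holds Mir31, and 47.5% on chromosome 11, which holds Mir21a. Mirlet7i, of the growth-restraining let-7 family, had 4.32 in KO and 15.9 in WT cells 21.8 kb away (3.68-fold lower, authors' deposited table, FDR 0.272).

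Read by list, 13 of 209 microRNA genes in 9 lists of known roles had a listed peak for any mark, where the symbol rule finds 1180 genes in RefSeq and 133 in the tables. Of 24 genes linked with the proliferative or synthetic state, 6 had 9 H3K9ac peaks, 6 lower and 3 higher, and 4 of the lower peaks had an FDR under 0.05 by the authors' deposited table (Mir199a-2, Mir214, Mir26a-1 and Mir26a-2). Of all listed H3K9ac peaks 77.2% were lower and 16.6% had an FDR under 0.05, and the difference from those shares was not tested. Of 17 contractile genes, Mir143 and Mir145a had H3K9ac peaks, 3 lower and 0 with an FDR under 0.05 by the authors' deposited table. The lists of the miR-17 to miR-92 family and of matrix-targeting microRNAs, which include the miR-29 genes, had none. Among 61 symbols of the imprinted Dlk1 to Dio3 cluster only Mir496b was listed, and it lies on chromosome 19 inside Gnaq, outside that cluster, with a pair of lower peaks at FDRs of 0.135 and 0.144 by the authors' deposited table.

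Of the other lower microRNA peaks with an FDR under 0.05, most lay beside microRNAs of high number, whose roles are little known. Mir6420 had the smallest p, with 35.0 in KO and 94.4 in WT cells 32.4 kb from its hairpin (2.69-fold lower, p 0.000129, authors' deposited table, FDR 0.00753). Mir6944, in the drebrin gene Dbn1, had 15.5 in KO and 50.6 in WT cells (3.27-fold lower, FDR 0.00956), and a second, stronger peak in the neighbouring Prr7 with 304 in KO and 592 in WT cells (FDR 0.296), by the authors' deposited table. Mir7660 in Cand2 had the largest fold of the 121 microRNA peaks, 15.0-fold lower, resting on a KO signal of 1.16 against 17.5 in WT cells (authors' deposited table, FDR 0.0297). The Mir7660 hairpin itself lies in another peak, annotated to Cand2, with 252 in KO and 584 in WT cells (2.31-fold lower, authors' deposited table, FDR 0.0197). Mir7005, in the laminin gene Lama5, had 3.43 in KO and 26 in WT cells (7.52-fold lower, authors' deposited table, FDR 0.0238). Mir1966 in Ripor1 had 83.9 in KO and 214 in WT cells (FDR 0.0194), and Mir7041 in Lrig1, a feedback inhibitor of growth factor receptors, 73.0 in KO and 158 in WT cells (FDR 0.0402), by the authors' deposited table. Lrig1 itself had a higher promoter peak and a lower intronic peak, at FDRs of 0.149 and 0.0976 by the authors' deposited table. Mir6410 had 8.69 in KO and 33.1 in WT cells at a peak inside Pdxk (FDR 0.0433), and Mir3076, in Tkt, 37.5 in KO and 89.9 in WT cells (FDR 0.0441), by the authors' deposited table. Among peaks that passed the threshold, KO signal at those annotated to these microRNAs was below that at Mir199a-2, Mir27a, Mir26a-1 and Mir26a-2. At 3 of the peaks annotated to these microRNAs (Mir7660, Mir7005 and Mir6410) it was under 10. The Mir214 peak also passed, with only 5.35 in KO cells, as did the Cand2 peak over the Mir7660 hairpin, with 252.

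The other lower peaks with an FDR under 0.05 lay at microRNAs known from other cell types. Mir147, known from the macrophage response to Toll-like receptors, had 18.0 in KO and 65.3 in WT cells 11.3 kb from the hairpin (3.66-fold lower, authors' deposited table, FDR 0.0227). Mir129-1, known from neurons, had 34.3 in KO and 83.9 in WT cells 1.17 kb away (2.45-fold lower, FDR 0.0441), and a second lower peak at an FDR of 0.293, by the authors' deposited table. Other tissue-restricted microRNAs had listed peaks that did not pass the FDR threshold. Among them were Mir124a-3, a neuronal microRNA, with 8.63 in KO and 33.1 in WT cells (FDR 0.0832), and Mir290a, of the embryonic stem cell cluster, with 2.33 in KO and 15.2 in WT cells (FDR 0.109), by the authors' deposited table. Mir499, the muscle microRNA of the myosin gene Myh7b, had 14.0 in KO and 30.7 in WT cells (FDR 0.309), and Mir150, of lymphocytes, 47.8 in KO and 80.4 in WT cells (FDR 0.185), by the authors' deposited table. The pair of lower peaks annotated to Mir144, an erythroid microRNA, lay inside Flot2, 13.9 and 14.8 kb from the hairpin.

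Higher acetylation was rarer. Mir7009 had 25.5 in KO and 3.73 in WT cells at a peak in Anxa5, the annexin A5 gene that holds it (6.82-fold higher, p 0.000336, authors' deposited table, FDR 0.0151). Mir7671 had 26.5 in KO and 4.89 in WT cells 5.85 kb from its hairpin (5.43-fold higher, authors' deposited table, FDR 0.0438). Both folds rest on WT signals under 5. After these and Mir31, the smallest p among higher peaks were those of Mir466f-4 (64.4 in KO and 29.0 in WT cells) and of Mir1961 in Shroom3 (68.6 in KO and 29.9 in WT cells), with FDRs of 0.0855 and 0.0938 by the authors' deposited table. Shroom3 had peaks of its own in both directions. Among them, a lower one passed the FDR threshold, with 26.0 in KO and 65.8 in WT cells (authors' deposited table, FDR 0.0258). A higher one had 46.2 in KO and 23.4 in WT cells (authors' deposited table, FDR 0.233). Mir680-3 had a pair of higher peaks, 2.81-fold and 2.0-fold, both at an FDR of 0.121 by the authors' deposited table and 51.9 and 29.9 kb away. Mir1192 in Klf9 (1.93-fold), Mir6407 in Xpnpep1 (2.06-fold) and Mir7080 in Cpne7 (2.11-fold) completed the higher genes of smallest p, at FDRs of 0.131, 0.134 and 0.151 by the authors' deposited table. Xpnpep1 itself had a lower promoter peak, with 12.0 in KO and 35.0 in WT cells (authors' deposited table, FDR 0.272).

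Most microRNA peaks shared their place with a host gene. The hairpins of 77 of the 93 H3K9ac genes lay inside another RefSeq gene, on either strand, and 82 of the 121 peaks lay in that same gene. A further 11 peaks lay in a gene that does not hold the hairpin. Among these were the Mir7084 peak in the 3′ UTR of Cnn1, which encodes the contractile protein calponin (5.94 in KO and 21.3 in WT cells, authors' deposited table, FDR 0.212), and the Mir6991 peak in Rtn3. Of 33 microRNA genes whose host had a listed peak of its own, 26 went the way of all host peaks, 4 went the opposite way, and at 3 the host had peaks in both directions. With 77.2% of all listed H3K9ac peaks lower, most pairs of peaks share a direction without being related, so nothing is read from this count. Mir763 had 4 lower peaks along Hmga2, 1.69-fold to 1.97-fold lower, and Hmga2, a chromatin protein of growing mesenchymal cells, had its own peak with 1361 in KO and 2998 in WT cells (2.20-fold lower, authors' deposited table, FDR 0.062). Mir6945 in Pdlim7, Mir3075 in Zmiz1 and Mir6376 in Rpn1 had 3 lower peaks each.

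By distance, 15 of the 121 H3K9ac peaks held the hairpin of the gene they were annotated to, 61 lay within 3 kb of it and 33 more than 10 kb away. Of the 15 holding the hairpin, 13 were lower, as were 52 of the 61 and 28 of the 33. Read with the background of 77.2%, the direction thus differed little with distance. Promoter peaks made up 48.8% of microRNA peaks and 44.9% of all listed peaks by the authors' deposited table.

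The annotation to a near start also left microRNA hairpins under other names. RefSeq hairpins lay in 24 H3K9ac peaks, 9 of them annotated to another gene (6 lower, 3 higher). The largest difference among these 9 was at Mir9-2, a neural microRNA in C130071C03Rik, with 329 in KO and 16 in WT cells (20.5-fold higher, p 0.00477, authors' deposited table, FDR 0.0869). It did not pass the FDR threshold, and a further peak of C130071C03Rik was lower, with 30.9 in KO and 64.9 in WT cells (authors' deposited table, FDR 0.149). The peak of Mir7237 in Banp passed the threshold, with 38.3 in KO and 91.8 in WT cells (2.39-fold lower, authors' deposited table, FDR 0.00943), as did that of Mir7660 in Cand2, above. The host transcript Mir100hg, which carries Mir100, Mirlet7a-2 and Mir125b-1, had a pair of lower promoter peaks with 292 and 284 in KO and 465 and 560.3 in WT cells, at FDRs of 0.253 and 0.12 by the authors' deposited table. Mir99ahg, which carries Mir99a, Mirlet7c-1 and Mir125b-2, had 365 in KO and 648 in WT cells (authors' deposited table, FDR 0.153).

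The genes that make and use microRNAs were read as a list of 33. For H3K9ac 13 of them had 19 listed peaks, 16 lower and 3 higher, and 1 had an FDR under 0.05 by the authors' deposited table, against 77.2% lower and 16.6% under that FDR of all listed peaks. The called one was a peak away from the start of Adar, an RNA editing enzyme, with 38.6 in KO and 92.4 in WT cells (2.39-fold lower, authors' deposited table, FDR 0.0422). Promoter peaks were listed at 6 genes. Khsrp, which binds the loop of some precursors, had 16.1 in KO and 49.2 in WT cells, and Ddx5, a helicase of the Drosha complex, 37.0 in KO and 70.5 in WT cells, at FDRs of 0.0671 and 0.239 by the authors' deposited table. Zc3h7b and Zc3h7a, zinc-finger proteins that bind microRNA precursors, were 2.27-fold and 1.74-fold lower, at FDRs of 0.164 and 0.184 by the authors' deposited table. Ago1, an Argonaute, had 39.1 in KO and 14.7 in WT cells (2.66-fold higher, authors' deposited table, FDR 0.0887). Cnot1, the scaffold of the deadenylase, had promoter peaks in both directions. The exporter Xpo5 had an intronic peak with 6.73 in KO and 23.6 in WT cells (FDR 0.151), and Ago2, the slicing Argonaute, a pair of lower peaks away from its start (FDRs 0.148 and 0.265), by the authors' deposited table.

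Cell markers were checked only where a peak was listed. Of 5 smooth muscle markers 3 had H3K9ac peaks, 4 lower and 1 higher. Acta2 had 155 in KO and 236 in WT cells at its exon (FDR 0.236) and, at the higher, intergenic peak, 43.1 in KO and 22.0 in WT cells (FDR 0.286), by the authors' deposited table. Myocd had 5.17 in KO and 17.9 in WT cells (authors' deposited table, FDR 0.313). Tagln had a pair of lower promoter peaks, with 15.0 in KO and 41.4 in WT cells (FDR 0.0793) and 23.9 in KO and 51.6 in WT cells (FDR 0.239), by the authors' deposited table. Peaks were counted by annotated symbol, so the Mir7084 peak inside Cnn1, another of these markers, is not among them. Of 3 leukocyte markers Cd14 was listed, with 1296 in KO and 724 in WT cells at its promoter (FDR 0.231), and of 3 endothelial markers Pecam1, with 249 in KO and 145 in WT cells (FDR 0.245), by the authors' deposited table. Fibroblast markers gave Pdgfra lower and Lum higher. No marker had a listed H3K9me3 peak. The part of other cells, or of a different share of them, in the microRNA results was not tested, and in bulk chromatin fewer cells with a mark and less of it per cell cannot be told apart.

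H3K9me3 at microRNA genes was mostly higher in KO cells, without any call after correction. Of 57 peaks 48 (84.2%) were higher and 9 (15.8%) lower by the authors' deposited table, against 61% higher and 39% lower of all 5374 listed peaks. No microRNA peak had an FDR under 0.05 by the authors' deposited table, nor any listed peak (0%), so each is given by its unadjusted p. The smallest FDR at a microRNA gene was 0.584. Runs of neighbouring peaks made up much of this count: 25 of the 57 peaks belonged to 6 genes, and all 25 were higher. Among the 32 genes with 1 peak, 23 were higher (71.9%), and over all 38 microRNA genes 29 (76.3%), against 60.4% of all 3951 listed genes. Weighted by the chromosomes of the microRNA peaks, 67.6% of listed peaks were higher. The median log2 fold change was 2.87 at microRNA peaks and 2.73 at all listed peaks by the authors' deposited table.

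These peaks had low signal, as did listed H3K9me3 peaks in general, and most lay far from the hairpins. Median signal over both genotypes was 7.62, against 6.68 at all listed H3K9me3 peaks. For H3K9ac it was 43.7 at microRNA peaks, though signals of the 2 marks are not on 1 scale. Of the 57 peaks 46 (80.7%) lay more than 10 kb from the hairpin, and 69.9% of all listed H3K9me3 peaks lay 10 kb or more from the start they were annotated to. Promoter peaks were 12.3% of both sets. At 4 microRNA peaks the KO value and at 7 the WT value stood at the lowest level in the table, 0.747 in KO and 0.732 in WT cells, so their folds depend on that level.

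Mir692-2 had the most peaks of these genes, 8 higher ones over 171 kb of Grik3, a glutamate receptor gene on chromosome 4. KO signal ran between 17.4 and 64.0 and WT signal between 0.946 and 12, and the folds between 4.63-fold and 27.5-fold higher by the authors' deposited table. The peak nearest the hairpin, 10.6 kb away, had the smallest p of all H3K9me3 microRNA peaks, with 26 in KO and 0.946 in WT cells (p 0.000912, authors' deposited table, FDR 0.584). The hairpin itself lay in a peak annotated to Ftl2-ps, with 46.5 in KO and 6.50 in WT cells (p 0.0169, authors' deposited table, FDR 1). All 10 listed peaks annotated to Mir692-2 or Ftl2-ps, and the 6 annotated to Grik3, were higher in KO cells. Of all listed H3K9me3 peaks on chromosome 4, 79.2% were higher.

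On chromosome 17 Mir7214 had 6 and Mir7218 had 3 higher peaks within 84.4 kb (chr17:27287750-27372150). The strongest H3K9me3 peak of any microRNA gene was among them, with 446 in KO and 109 in WT cells (4.06-fold higher, p 0.0413 by the authors' deposited table). The other 8 had 13.5 to 58.5 in KO and 0.732 to 7.21 in WT cells by the authors' deposited table. Mir8110 on chromosome 8 had 3 higher peaks, with 58.1 in KO and 11.1 in WT cells at that nearest the hairpin, 0.492 kb away (p 0.041 by the authors' deposited table). Mir6355 had 3 and Mir6393 had 2 higher peaks, at 7.06-fold to 10.5-fold and 4.23-fold to 4.89-fold by the authors' deposited table. Of all listed H3K9me3 peaks, 63.3% were higher on chromosome 17 and 88.6% on chromosome 8. The share was 73.6% on chromosome 18, which holds Mir6355, and 45.3% on chromosome 15, which holds Mir6393.

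**Figure D4:**
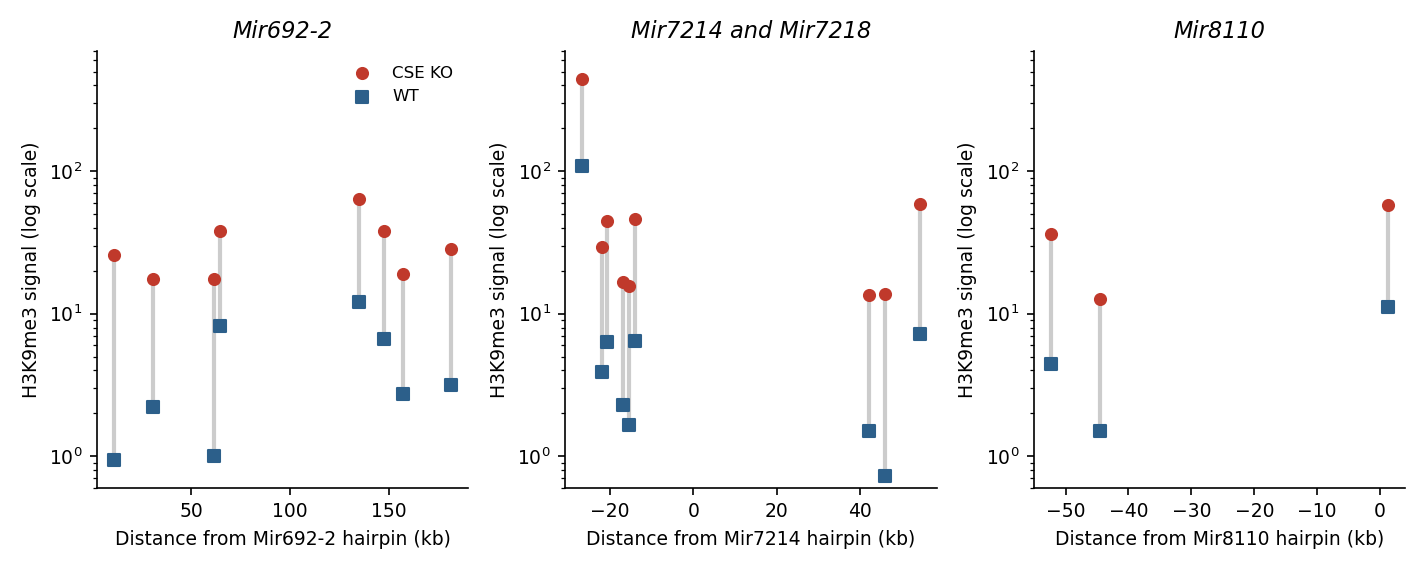
H3K9me3 signal (log axis) in CSE KO (red circles) and WT (blue squares) by distance (kb, along the chromosome) of each peak's centre from the named hairpin. KO lies above WT at all 8 Mir692-2 peaks, all 9 peaks of Mir7214 and Mir7218 and all 3 of Mir8110.

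Other higher H3K9me3 peaks of small p were each the only listed one of their microRNA gene. The hosts of Mir3106 and Mir6336, Csmd1 and Lrp1b, each had a higher peak too, at p 0.00165 and p 0.000328 by the authors' deposited table. Mir6901, in the matrix gene Sned1, had 19.3 in KO and 1.01 in WT cells 0.257 kb from the hairpin (p 0.00286 by the authors' deposited table). Mir8117 had 12.6 in KO and 1.01 in WT cells, and Mir3106, in Csmd1, 11.6 in KO and 1.01 in WT cells, at p 0.0041 and p 0.0134 by the authors' deposited table. At Mir383, Mir195b, Mir6336 and Mir3472 WT cells were at the lowest level, and KO cells had 9.19, 10.6, 8.40 and 7.57 by the authors' deposited table. In that order, the peaks lay 201, 276, 8.1 and 18.1 kb from the hairpins. Mir2136 had 10.9 in KO and 0.946 in WT cells 30.0 kb from the hairpin (p 0.0121 by the authors' deposited table). Mir21c, which shares the miR-21a seed, had 9.71 in KO and 0.973 in WT cells 0.367 kb from the hairpin (9.99-fold higher, p 0.0203 by the authors' deposited table).

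All 9 lower H3K9me3 genes can be named. Mir122, the main microRNA of liver, had 0.747 in KO and 12.8 in WT cells, and Mir153, a neuronal microRNA in Ptprn2, 0.747 in KO and 12 in WT cells, at p 0.00399 and p 0.0046 by the authors' deposited table. The Mir122 peak lay 15.5 kb from its hairpin. The Mir153 peak lay 39.0 kb from its hairpin, inside Gm5441 but outside Ptprn2. Mir6413 and Mir5124b, which share the miR-24-3p seed, also stood at the lowest KO level, with 9.58 and 6.36 in WT cells by the authors' deposited table. Mir1936 in Itpk1 had 1.56 in KO and 13.7 in WT cells, Mir6412 had 0.953 in KO and 8.22 in WT cells, and Mir708, in the teneurin gene Tenm4, 3.29 in KO and 21.6 in WT cells, by the authors' deposited table. The peaks of Mir6413, Mir5124b, Mir1936, Mir6412 and Mir708 lay 3.9, 18.5, 21.0, 38.0 and 25.8 kb from their hairpins. Mir145b, named for its likeness to Mir145a but at another locus, had 1.48 in KO and 9.13 in WT cells 64.8 kb away (p 0.0458 by the authors' deposited table). Of the microRNA genes in the imprinted Sfmbt2 cluster, Mir467a-7 had 1.16 in KO and 8.22 in WT cells 0.207 kb from the hairpin, and Mir669h 8.69 in KO and 1.01 in WT cells at an intergenic peak 137 kb from its hairpin and outside Sfmbt2, at p 0.0363 and p 0.0278 by the authors' deposited table. Among the microRNA processing genes, Dgcr8 had 0.747 in KO and 6.36 in WT cells and Ago2 had 7.89 in KO and 0.732 in WT cells, at p 0.0379 and p 0.0206 by the authors' deposited table. Mir1306 lies in Dgcr8 and had an H3K9ac peak there with 20.7 in KO and 41.1 in WT cells (authors' deposited table, FDR 0.305).

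The H3K4me3 table gives positions without values, so no direction could be read. It lists 4 peaks at 3 microRNA genes, or 4 of 469 peaks. A peak of Mir677 lay 51 bases from the hairpin, in the ATP synthase gene Atp5b (chr10:128084767-128085235). A pair of peaks was annotated to Mir148a, at chr6:51171539-51172928 and chr6:51173201-51174553, 96.9 and 95.3 kb from the hairpin. Both lay whole inside the Mir148a H3K9ac peak described above, which had 1009.9 in KO and 1898 in WT cells by the authors' deposited table. Mir148a was the only microRNA gene listed for more than 1 mark (1 gene for H3K9ac and H3K4me3, and 0 genes for H3K9me3 with either of them), and no microRNA peak of H3K9me3 overlapped a listed peak of the other marks.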

How the data were processed

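The deposited tables come from ChIP-seq of 18 immunoprecipitated and 18 input samples. Per the labels' protocols, libraries were PCR-amplified and sequenced on a HiSeq instrument. The submitters' processing notes name CASAVA 1.4 and build mm9, while aligner, peak caller, normalisation and test of differences were not given in the sources used here. Hairpin positions in the tables equalled those of RefSeq GRCm38.p6 for 132 of 133 microRNA genes, and the exception, Mir1957a, has another symbol there, so coordinates are taken to be GRCm38. Per the file headers, the authors give log2 signal over all samples, in KO and in WT, and from their comparison p-value, FDR and log2 fold change, for each H3K9ac and H3K9me3 peak. The log2 fold change equalled KO minus WT within 0.01. The planned count tests had no per-sample values to run on, so the authors' calls were counted.

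Peaks were selected by symbol, joined to RefSeq genes, hairpins, promoters and mature sequences (overlap of at least 1 bp) and counted beside all listed peaks, with Python 3.11.15, numpy 2.4.6, pandas 2.3.3 and matplotlib 3.10.9. The selection and overlap functions were tested on simulated data. The microRNA genes, lists and alternatives were chosen with earlier results of these data known. Named genes are those with an FDR under 0.05, the 10 of smallest p per mark and direction, list members, genes with several peaks or marks, H3K4me3 genes (1 of the 4 peaks is not reported here), and processing genes with promoter peaks. Others (tissue-restricted microRNAs, hairpins under other names, hosts) were named after their values were seen.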

Additional observations from a re-analysis of the deposited data

How the results depend on the processing

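Counts fell with the size of the subset, and shares moved less. For H3K9ac (102 lower, 19 higher), counts were 40 and 9 at p under 0.01, 15 and 2 at FDR under 0.05, 51 and 8 at promoters, 28 and 5 within 1 kb of the start, 55 and 10 at or above the median signal, and 47 and 8 with the hairpin within 3 kb and no other RefSeq start as near. Peaks holding a RefSeq hairpin, an alternative chosen after seeing the data, gave 19 and 5. Lower peaks were 79.2% to 88.2% throughout. Of all 3399 listed H3K9ac peaks with p under 0.01, 2585 were lower. For H3K9me3 (48 higher, 9 lower) the same settings in that order gave 6 and 2, 0 and 0, 6 and 1, 5 and 1, 33 and 3, 5 and 1, and 2 and 0, and 1 call per gene gave 29 and 9. Higher peaks were 75% to 100% where any remained. The 75% was at p under 0.01, where 995 of all 1337 listed H3K9me3 peaks were higher, a share close to it. For the promoter, distance and signal settings no share over all listed peaks was counted. H3K4me3 had 2 promoter peaks of 4. Leaving out the X chromosome or adding host transcripts ending in hg kept each count within 1.5 times, as did 1 call per gene for H3K9ac. Median log2 fold changes kept their sign, between -0.82 and -1.12 for H3K9ac and 2.82 and 3.17 for H3K9me3. Both overlaps between marks held when at least 50% of the shorter peak had to overlap.

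No paired analysis was possible because the tables hold no per-sample values, and leaving out replicates was not run for the same reason. The unknown depth, the missing p under 0.0001 and the unknown normalisation limit every count, and their effect was not tested.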
